A study of Mus musculus with 8 samples.

Results

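The dual-specificity MAP kinase phosphatases are enzymes that switch MAP kinases off, and 8 of their genes (Dusp1, Dusp2, Dusp3, Dusp4, Dusp5, Dusp6, Dusp7 and Dusp16) were followed in bone marrow derived macrophages (BMDM). Every probe set annotated to 1 of these symbols was taken, which gave 13 of the 45037 probe sets tested and 8 of the 18193 genes named on the array. The BMDM came from wild-type mice on the C57BL/6J background, were grown with L929 cell supernatant as the source of macrophage colony stimulating factor, and were replated on day 7 without that supernatant. M0 cells then received media alone, M1 cells a mixture of LPS (100 ng/ml) and IFN-γ (20 ng/ml), and M2 cells IL-4 (20 ng/ml). RNA was taken 24 hours later from 3 M0, 3 M1 and 2 M2 cultures and hybridized to 1 Affymetrix Mouse 430 2.0 array each. Age and sex of the mice are not given in the sources used here.

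A MAP kinase is active while both a threonine and a tyrosine of its activation loop carry phosphate, and a dual-specificity phosphatase removes both. The typical members carry a docking domain that binds the kinase and a catalytic domain, and they differ in where they sit in the cell and in which kinase (ERK, JNK or p38) they prefer. Several are transcribed in response to the same kinases that they inactivate, which makes them feedback inhibitors. In macrophages Dusp1 is the best known of them, since it curbs p38 and JNK after LPS and so limits cytokine output.

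Dusp1, Dusp2 and Dusp16 rose together in M1 and did not pass the test in M2, and their upstream regions are shown for this reason. The sequences are from RefSeq, build GRCm38.p6, and cover the 250 bases before the annotated start of a transcript, printed 5′ to 3′ on the strand of the gene. They are chr17:26508473-26508722 (minus strand) for Dusp1, chr2:127335909-127336158 (plus strand) for Dusp2 and chr6:134792629-134792878 (minus strand) for Dusp16, of which the last lies inside the annotated span of its gene. Capitals mark TGACG on either strand, the core of a cyclic AMP response element (CRE), and CACGTG, an E box.
Dusp1: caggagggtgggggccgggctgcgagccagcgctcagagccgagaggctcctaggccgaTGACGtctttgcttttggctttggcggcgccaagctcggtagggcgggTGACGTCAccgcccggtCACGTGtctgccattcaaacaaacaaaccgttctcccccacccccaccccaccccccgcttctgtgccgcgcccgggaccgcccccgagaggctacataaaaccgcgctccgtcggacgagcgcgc
Dusp2: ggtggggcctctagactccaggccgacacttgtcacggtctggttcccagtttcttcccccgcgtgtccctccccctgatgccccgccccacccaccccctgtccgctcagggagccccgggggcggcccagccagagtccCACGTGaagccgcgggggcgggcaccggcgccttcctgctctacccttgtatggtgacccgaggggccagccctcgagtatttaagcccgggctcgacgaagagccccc
Dusp16: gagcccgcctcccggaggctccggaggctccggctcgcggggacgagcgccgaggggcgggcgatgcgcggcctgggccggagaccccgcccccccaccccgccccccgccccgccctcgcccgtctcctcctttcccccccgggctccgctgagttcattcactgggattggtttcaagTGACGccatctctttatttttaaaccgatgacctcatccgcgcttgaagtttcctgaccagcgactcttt

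Upstream windows were held for 7 of the 8 genes, all but Dusp4. TGACG was present in 3 of the 7 windows (Dusp1, Dusp5 and Dusp16) and in 17.8% of all 32851 windows of the same length. The Dusp1 window held TGACG on 1 strand or the other at 3 positions, of which 2 form the palindrome TGACGTCA from base 143 to base 136 before the start. That palindrome was in 1.55% of all windows and in no other window of the 7. CACGTG was in the windows of Dusp1 and Dusp2 and in 6.02% of all windows. A CArG box, the serum response factor motif, was in the Dusp5 window alone of the 7, against 1.47% of all windows. The STAT motif TTCNNNGAA, in 7.02% of all windows, was in none of the 7. The printed windows of Dusp1, Dusp2 and Dusp16 held 68.4%, 70.4% and 68.4% G or C, against a median of 52.4% over all windows. The shares of all windows were not matched for this. All motifs were searched on both strands, and a match describes these letters and is not a measured binding site.

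The values below are intensities after RMA (background correction, normalization between arrays and summary of the probes of a set), in linear units, and fold changes are differences of mean log2 intensity with their standard error (SE). A probe set passed at a Benjamini-Hochberg adjusted p under 0.05 from limma, adjusted over all 45037 probe sets. Array medians ran from 38.9 to 40.4 units, the table holds no detection calls, and levels of different probe sets cannot be set against each other. All 6 macrophage markers (Adgre1, Csf1r, Itgam, Cd68, Lyz2 and Mertk) were above 64 units in each condition, with summed levels of 66060 to 67950 in M0, 57720 to 58360 in M1 and 50430 to 53410 in M2. Of the markers of other cell types, 0 of 5 for neutrophils, 0 of 5 for T cells, 0 of 3 for NK cells and 0 of 4 for mast cells reached 64 units in any condition, with 1 of 4 for B cells, 2 of 4 for dendritic cells, 1 of 4 for endothelial cells and 1 of 5 for fibroblasts. The summed fibroblast markers were 134 to 163 units in M0, 186 to 326 in M1 and 152 to 252 in M2, and 1 of the 5 (Dcn) passed in M1, at 62.8 ± 4.89 (SD, n = 3) against 27.6 ± 0.773 (SD, n = 3) units, a count that was 2 without M1 replicate 1. Of the other lists, Camp of the neutrophil markers passed in both comparisons, at 24.1, 35.3 and 17.1 units in M0, M1 and M2 (in M2 not once any 1 of M0 replicates 1 and 3, M1 replicate 1 and both M2 arrays was left out), and Cd79b of the B cell markers passed in M1, at 85.0, 47.0 and 55.0 units. Of the macrophage markers, Cd68 and Mertk were lower in M1 and Adgre1, Lyz2 and Mertk lower in M2. The part of these shifts in the results was not tested. The labels call the arrays biological replicates, whereas the methods mention both independent mice and in vitro replicates, so p-values measure the spread between arrays. In bulk RNA a larger number of expressing cells and more RNA per cell cannot be told apart.

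In M1 macrophages 10 of the 13 Dusp probe sets passed, against 20.4% of all probe sets. Of the 10, 4 were higher and 6 lower (10.2% and 10.2% of all), and the 6 belong to Dusp3 and Dusp7 alone. All 13 but 1440615_at of Dusp16 were above 64 units on every array. Over all probe sets, 39.8% to 40.6% were above 64 units on each array, and the shares of all were not matched for intensity. By the brightest probe set of each gene, Dusp2, Dusp16, Dusp1 and Dusp4 rose, Dusp3 and Dusp7 fell, and Dusp5 and Dusp6 did not pass. In M2 macrophages only 1 of the 13, that of Dusp4, passed as higher and 0 as lower, against 12.2% of all in either direction, 6.32% higher and 5.85% lower. For that 0 by limma, the unadjusted p was under 0.05 with a lower value for Dusp1 (0.0197) and for 1 probe set of Dusp7 (0.00852). Both comparisons share the M0 arrays, and M1 against M2 tests the difference between the stimuli. There, 11 of the 13 passed, against 19% of all, with 3 higher in M1 and 8 lower (8.87% and 10.1% of all). By the methods' t-test with adjustment log2 values gave 2 and 2 and linear intensities gave 0 and 2. Over all 45037 probe sets that test gave 1526 and 1135 calls in M1 against M2, compared with 8549 by limma.

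**Figure D1:**
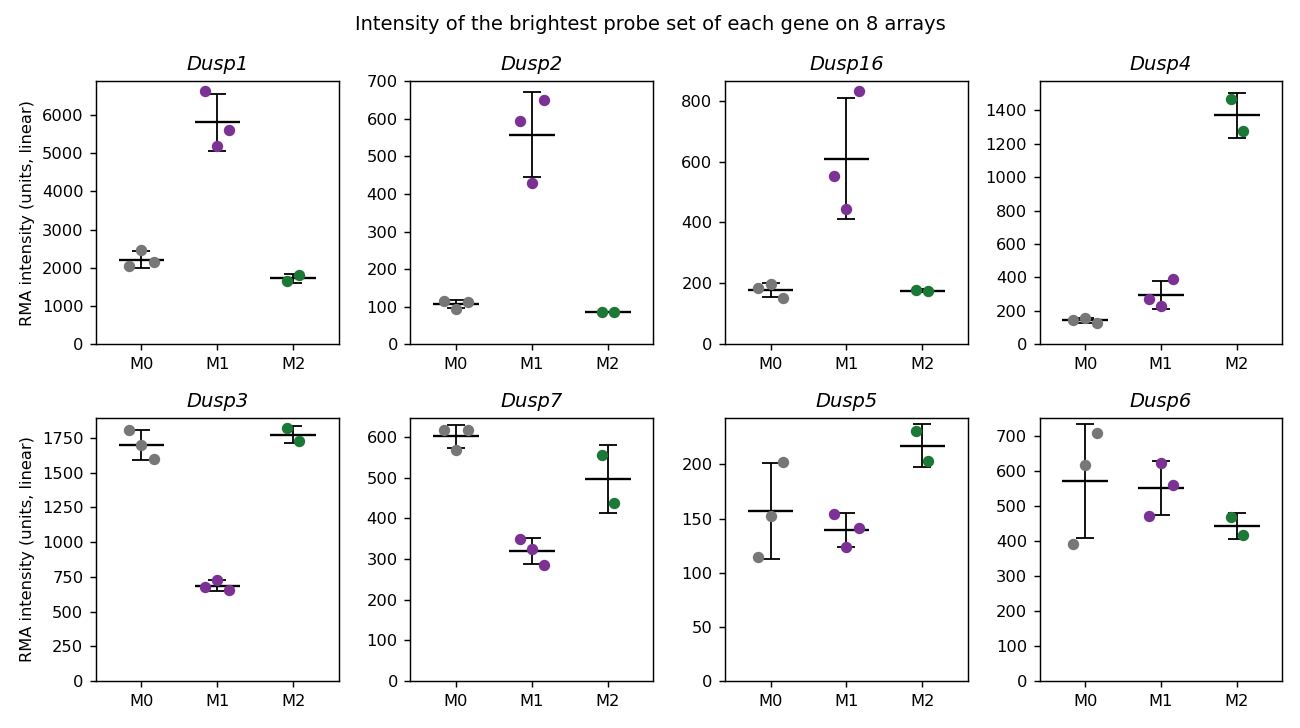
Intensity of the brightest probe set of each of the 8 Dusp genes, in linear RMA units from 0, on each of the 3 M0, 3 M1 and 2 M2 arrays (points), with the mean (bar) and SD (whiskers). The M1 arrays lie above all others for Dusp1, Dusp2 and Dusp16 and below all others for Dusp3 and Dusp7, while Dusp4 is highest on the M2 arrays, at 1275 and 1468 units.

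Dusp1, a nuclear phosphatase of p38 and JNK, lies at chr17:26505591-26508472 and is read by 1 probe set (1448830_at). It measured 2038, 2454 and 2151 units on the M0 arrays, 6637, 5191 and 5602 on the M1 arrays, and 1645 and 1807 on the M2 arrays. All M1 arrays were above all others, and both M2 arrays were below every M0 array. The level in M1 was 2.62-fold that of M0 (log2 fold change 1.39, SE 0.12, adjusted p = 4.42e-06 from limma). In M2 the log2 difference from M0 was -0.36 (SE 0.13), which did not pass (adjusted p = 0.113 from limma). M1 exceeded M2 3.35-fold (log2 1.74, SE 0.13, adjusted p = 1.29e-06 from limma). By the methods' t-test with adjustment this difference from M2 did not pass on linear values (adjusted p = 0.0845).

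Dusp2, a nuclear phosphatase known from activated leukocytes, lies at chr2:127336159-127338377 and is also read by 1 probe set (1450698_at). Its intensity was 115, 94.7 and 113 units in M0, 594, 430 and 649 in M1, and 86.5 and 85.3 in M2. The M1 arrays stood apart from all others, and the M2 arrays were again the lowest. The 5.13-fold rise in M1 was the largest of the 8 genes in that comparison and the 103rd highest among the 18193 named genes (log2 2.36, SE 0.15, adjusted p = 2.98e-07 from limma). In M2 the log2 difference of -0.32 (SE 0.16) did not pass (adjusted p = 0.269 from limma), and M1 was 6.40-fold above M2 (adjusted p = 1.79e-07 from limma). By the methods' t-test with adjustment M1 against M2 did not pass on linear values (adjusted p = 0.120).

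Dusp16, which acts on JNK and p38 and shuttles between nucleus and cytoplasm, lies at chr6:134715468-134807063 and has 2 probe sets. The brighter, 1418401_a_at, gave 184, 198 and 153 units in M0, 552, 445 and 830 in M1, and 179 and 173 in M2. M1 lay above both other conditions without overlap, while the M2 values fell within the range of M0. The rise in M1 was 3.32-fold (log2 1.73, SE 0.19, adjusted p = 2.99e-05 from limma). M2 differed from M0 by -0.01 on the log2 scale with a 95% interval from -0.47 to 0.45, and M1 was 3.35-fold above M2 (adjusted p = 6.74e-05 from limma). By the methods' t-test with adjustment the rise against M0 did not pass on linear values (adjusted p = 0.110), and the difference from M2 did not pass on log2 or linear values (adjusted p = 0.125 and 0.265), nor on linear values without adjustment. The other probe set, 1440615_at, stayed between 10.8 and 15.5 units on all arrays, below the median of each array, and its log2 difference of 0.30 in M1 did not pass (adjusted p = 0.105 from limma).

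Dusp4, a nuclear phosphatase of ERK, JNK and p38, lies at chr8:34807610-34819894 and was the only gene of the 8 that passed in both comparisons. Its probe set (1428834_at) measured 143, 157 and 130 units in M0, 274, 226 and 389 in M1, and 1468 and 1275 in M2. The 3 conditions did not overlap, in the order M0, M1, M2, and each neighbouring pair in that order passed the test. M2 was 9.57-fold above M0 (log2 3.26, SE 0.19, adjusted p = 3.55e-07 from limma), the 40th highest among the 18193 named genes. M1 was 2.02-fold above M0 (log2 1.01, SE 0.17, adjusted p = 0.000865 from limma) and 4.74-fold below M2 (log2 -2.24, SE 0.19, adjusted p = 3.15e-06 from limma). The rise in M1 did not pass with a lower limit of 64 units on all intensities (adjusted p = 0.0513 from limma) or by the methods' t-test with adjustment (adjusted p = 0.0862 on log2 values and 0.154 on linear values). The rise in M2 did not pass by that test on linear values alone (adjusted p = 0.0577). The difference between M1 and M2 did not pass by it on log2 or linear values (adjusted p = 0.0789 and 0.0530).

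Dusp3, a small phosphatase of ERK and JNK that lacks the docking domain and is often counted among the atypical members, lies at chr11:101971141-101987013. Its brightest probe set (1434472_at) gave 1810, 1699 and 1597 units in M0, 674, 729 and 658 in M1, and 1819 and 1732 in M2. Every M1 array was below every other array, and M0 and M2 overlapped. The level in M1 fell by 1.31 on the log2 scale (SE 0.10, adjusted p = 1.36e-06 from limma), which is 2.48-fold below M0. The other probe sets fell by 0.72 (1456769_at, adjusted p = 0.000376 from limma) and 0.53 (1425608_at, adjusted p = 0.00381 from limma). The direction was thus shared by all 3 probe sets, whereas only the brightest passed 2-fold. In M2 the log2 differences of the 3 probe sets were 0.06, 0.23 and 0.21 and none passed (adjusted p from 0.274 to 0.805 from limma). M1 was below M2 by all 3, and the brightest differed 2.59-fold (adjusted p = 1.88e-06 from limma).

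Dusp7, a cytoplasmic phosphatase that prefers ERK, lies at chr9:106368560-106375724. The brightest of its 3 probe sets (1452097_a_at) measured 618, 569 and 618 units in M0, 349, 324 and 286 in M1, and 556 and 439 in M2. The 3 conditions did not overlap, with M0 highest and M1 lowest. In M1 it fell by 0.92 on the log2 scale (SE 0.12, adjusted p = 0.000121 from limma). The other probe sets fell by 1.03 (1427416_x_at, 318, 315 and 324 units in M0 against 159, 154 and 156 in M1, adjusted p = 5.17e-06 from limma) and 0.66 (1460393_a_at, adjusted p = 0.00139 from limma). The suffix _x_at marks a set with probes that may also match other transcripts. By the methods' t-test with adjustment the fall of 1460393_a_at did not pass (adjusted p = 0.0569 on log2 values and 0.0843 on linear values).

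The M2 level of Dusp7 did not pass by any of its probe sets, with log2 differences from M0 of -0.28, -0.32 and -0.10 (adjusted p = 0.218, 0.0632 and 0.734 from limma). For 1427416_x_at the adjusted p from limma was 0.0212 after a further quantile normalization, 0.00946 with a lower limit of 64 units and 0.0291 when probe sets above 64 units on at least 2 arrays alone were tested. M1 was below M2 by 0.63, 0.72 and 0.56 on the log2 scale, and all 3 passed. With a lower limit of 64 units 1452097_a_at and 1460393_a_at did not pass (adjusted p = 0.0515 and 0.0720 from limma). Nor did they by the methods' t-test with adjustment, on log2 values (adjusted p = 0.188 and 0.0963) or linear values (adjusted p = 0.209 and 0.102). Without M2 replicate 1, 1452097_a_at and 1460393_a_at no longer passed in this comparison (adjusted p = 0.0682 and 0.0879 from limma), and together with Dusp5 this took the count of probe sets lower in M1 than in M2 from 8 to 5.

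Dusp5 and Dusp6 are both feedback inhibitors of ERK, the former nuclear and the latter cytoplasmic, and neither passed against M0. Dusp5 (chr19:53529145-53541809, 1437199_at) gave 114, 153 and 203 units in M0, 154, 123 and 141 in M1, and 231 and 203 in M2. Its M0 arrays spanned the whole range of M1 and came close to M2. The log2 differences were -0.13 (SE 0.17) in M1 and 0.51 (SE 0.20) in M2, with adjusted p = 0.700 and 0.126 from limma. M1 was below M2 by 0.64 (SE 0.20, adjusted p = 0.0374 from limma). That call was lost without any 1 of M0 replicate 2, M1 replicate 2, M1 replicate 3, M2 replicate 1 and M2 replicate 2 (adjusted p from 0.0559 to 0.220 from limma). A lower limit of 64 units also ended that call (adjusted p = 0.171 from limma). So did the methods' t-test with adjustment (adjusted p = 0.143 on log2 values and 0.1355 on linear values). Without M0 replicate 3, the highest M0 array, Dusp5 was higher in M2 than in M0 (log2 0.71, adjusted p = 0.0187 from limma), whereas without M0 replicate 1, the lowest, the difference was 0.30 (adjusted p = 0.335 from limma).

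Dusp6 (chr10:99263231-99267489, 1415834_at) measured 392, 617 and 709 units in M0, 470, 623 and 561 in M1, and 470 and 417 in M2. All 3 conditions overlapped except M1 with M2, and M0 had the widest spread, 572 ± 163 units (SD, n = 3). The log2 difference in M1 was -0.02 with a 95% interval from -0.43 to 0.39, and in M2 it was -0.33 with an interval from -0.79 to 0.13. M1 and M2 differed by 0.31 (adjusted p = 0.396 from limma). Without M0 replicate 1, the lowest M0 array, Dusp6 was lower in M2 than in M0 (log2 -0.58, adjusted p = 0.0368 from limma), whereas without M0 replicate 3, the highest, the difference was -0.15 (adjusted p = 0.771 from limma).

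**Figure D2:**
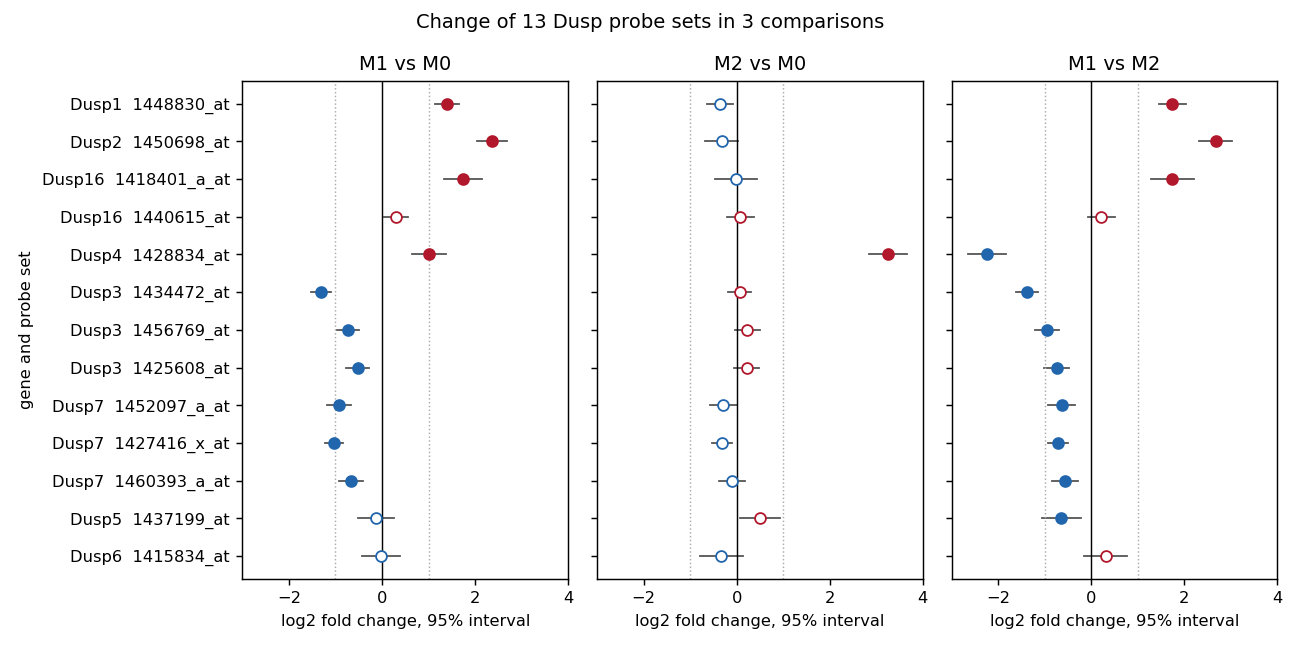
Log2 fold change (points) with 95% interval (lines) of the 13 Dusp probe sets in M1 against M0, M2 against M0 and M1 against M2, where red is higher, blue is lower, filled points passed at an adjusted p under 0.05 and dotted lines mark 2-fold. In M1 against M0 10 of the 13 points are filled, and in M2 against M0 only that of Dusp4, at 3.26.

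Leaving out any 1 array ended none of the 10 calls in M1 against M0 and did not end the call of Dusp4 in M2. The groups did not overlap for 11 of the 13 probe sets between M1 and M0, against 35.0% of all probe sets, for 8 between M2 and M0, against 41.1%, and for 12 between M1 and M2, against 41.1%. With a change of at least 2-fold also required, 6 of the 13 passed in M1 against M0, where 4.56% of all probe sets did, 1 in M2 against M0, where 2.85% did, and 5 in M1 against M2, where 5.59% did.

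The 3 other typical MAP kinase phosphatases on the array, Dusp8, Dusp9 and Dusp10, did not pass in either comparison with M0, with log2 differences from -0.21 to 0.16. Means in M0, M1 and M2 were close to 64 units for Dusp9 (74.3, 64.4 and 68.5) and Dusp10 (57.5, 56.3 and 64.1). Of the named genes by brightest probe set, 13.7% passed as higher and 11.5% as lower in M1, and 8.03% and 6.43% in M2, with medians over all named genes of 0.02 and 0.01. Of 15 genes listed as atypical dual-specificity phosphatases, 2 were higher and 2 lower in M1, and 2 were higher and 0 lower in M2. The median log2 differences of this list were -0.04 in M1 and 0.16 in M2. Dusp13, Dusp14, Dusp15, Dusp21, Dusp26, Dusp27 and Styxl1 had means below 64 units in each condition. Dusp28 rose by 0.88 and Dusp22, which acts in JNK signalling, fell by 0.78 in M1. Dusp23 fell by 0.57 in M1 and rose by 1.25 in M2. Dusp12 rose by 0.53 in M1 and by 0.42 in M2, and only the M2 call was lost without any 1 of the M0 or M2 arrays. Of 5 other phosphatases that act on MAP kinases, only Ppm1b, a metal-dependent serine and threonine phosphatase, passed, with a rise of 0.60 in M1 (list medians -0.01 in M1 and 0.16 in M2). Ptprr and Ptpn5 of this list had means below 64 units in each condition.

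Of 11 MAP kinases measured, 2 were higher and 0 lower in M1 and 1 was higher and 1 lower in M2 (median log2 differences 0.08 and -0.11). Mapk4, Mapk10, Mapk11, Mapk12, Mapk13 and Mapk15 had means below 64 units in each condition. Mapk9, which encodes a JNK, rose by 0.45 in M1. Mapk7, which encodes ERK5, rose by 0.34, a call lost without any 1 of M0 replicates 2 and 3 and M1 replicates 2 and 3. In M2 Mapk12, which encodes a p38 kinase, rose by 0.53, but its means of 31.1 and 44.9 units in M0 and M2 were near the array median, and the call was lost without either M2 array. Mapk14, which encodes the main p38 kinase, fell by 0.42 in M2, a call lost without any 1 of the M0 or M2 arrays.

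Of 21 upstream kinases and adaptors, 5 were higher and 0 lower in M1 and 3 were higher and 2 lower in M2 (median log2 differences 0.16 and 0.04). Map3k5, which encodes the stress kinase ASK1, rose by 1.58 in M1, from 113 ± 13.7 to 339 ± 55.3 units (SD, n = 3 each), and Map2k1, which encodes the ERK activator MEK1, rose by 0.62. Braf rose by 0.58, but did not pass once M0 replicate 1 or M1 replicate 1 was left out, and leaving out the former took the count of 5 to 3. In M2 Map3k6 rose by 0.90. Tab2 fell by 0.52 in M2, a call that leaving out M2 replicate 1 or any 1 of M0 replicates 2 and 3 ended, and Map3k5 fell by 0.49, a call lost without any 1 of M0 replicates 2 and 3, M1 replicate 1 and both M2 arrays. With M0 replicate 2, M0 replicate 3 or M2 replicate 1 left out the count of genes lower in M2 was 0, and with M1 replicate 1 or M2 replicate 2 left out it was 1. The count of genes higher in M2 was 1 when M2 replicate 2 was left out.

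Of 13 kinases and factors downstream of MAP kinases, 4 were higher and 5 lower in M1, and 3 were higher and 2 lower in M2 (median log2 differences 0.14 and 0.03). Rps6ka3, which encodes the ERK-activated kinase RSK2, fell by 1.20 in M1 and rose by 0.77 in M2. Jun, a target of JNK, fell by 0.48 in M1 and rose by 0.84 in M2. Elk3, a transcription factor regulated by ERK, moved the other way, with a rise of 0.52 in M1 and a fall of 0.76 in M2.

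Of 16 ERK-responsive genes and inhibitors of the ERK pathway, 5 were higher and 3 lower in M1, and 5 were higher and 2 lower in M2 (median log2 differences 0.10 and 0.21). Ier3, an immediate early gene, rose in both conditions, by 1.92 in M1 and by 2.50 in M2. Etv5, a transcription factor induced by ERK signalling, fell by 1.95 in M1, from 300.2 ± 24.4 to 79.9 ± 21.8 units (SD, n = 3 each), and Junb rose by 1.19. In M2 Phlda1 rose by 1.25 and Egr1 rose by 1.33, and the latter call was lost without either M2 array (adjusted p = 0.0660 and 0.0910 from limma). Phlda1 also rose in M1, by 1.05, and M1 against M2 did not pass for it (adjusted p = 0.529 from limma). Junb also rose in M2, by 0.53, a call lost without any 1 of M0 replicates 2 and 3 and both M2 arrays. The count of 5 higher in M2 became 3 when M0 replicate 3 or M2 replicate 1 was left out and 2 when M2 replicate 2 was.

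**Figure D3:**
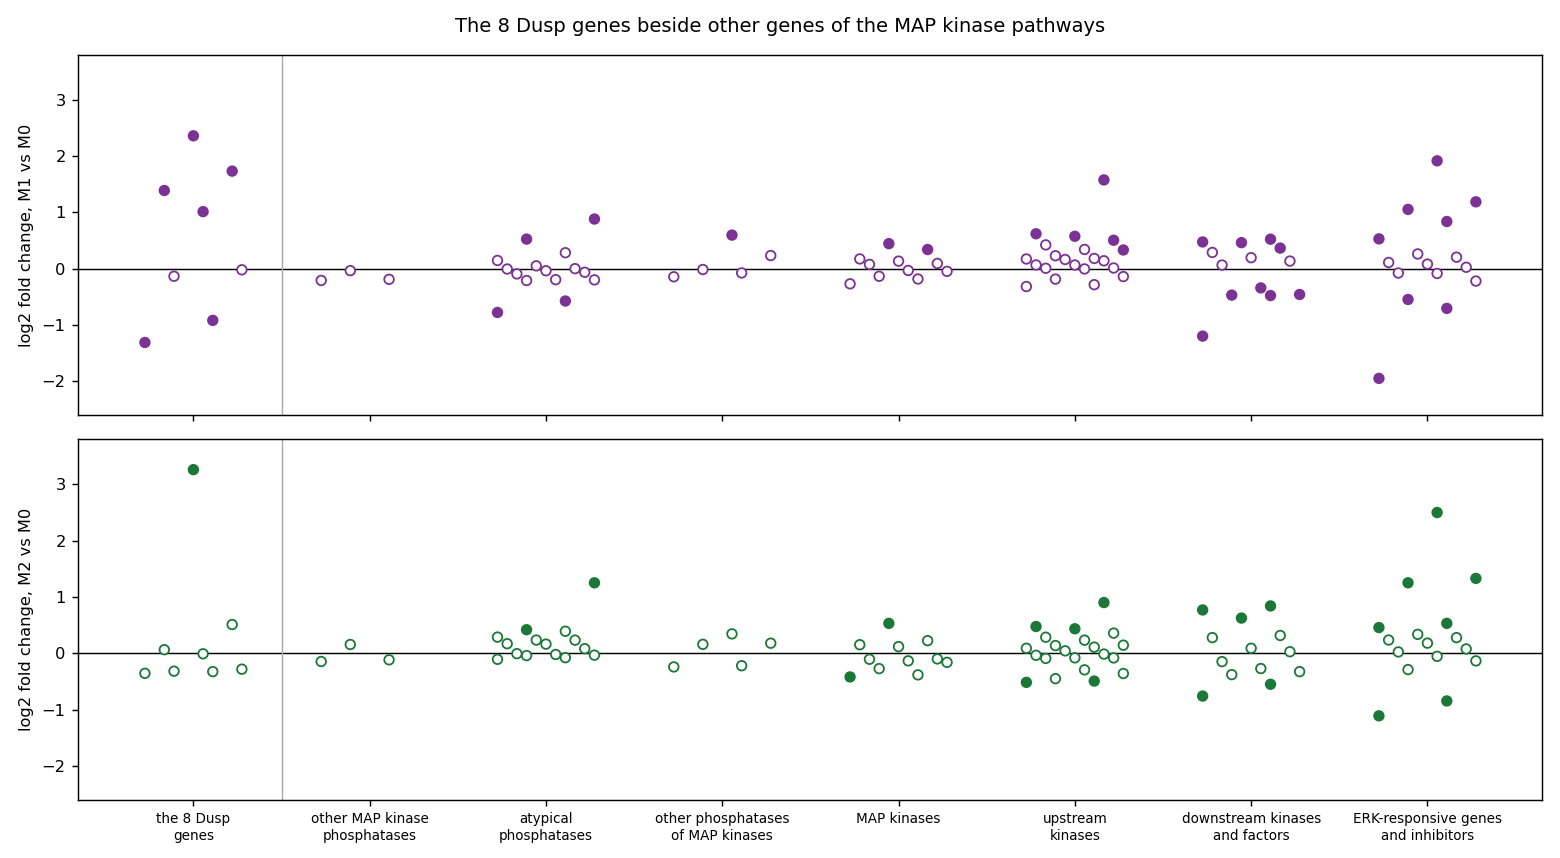
Log2 fold change against M0 of the 8 Dusp genes (left of the grey line) and of genes in 7 lists of the MAP kinase pathways, each by its brightest probe set, in M1 (top, purple) and M2 (bottom, green). Filled points passed at an adjusted p under 0.05. Dusp2 at 2.36 is the highest point in M1 and Dusp4 at 3.26 the highest in M2.

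The genes nearest in pattern to the 2 Dusp genes with the largest changes were sought among 10280 named genes with a condition mean above 64 units, as a description, by the root mean square difference over the 8 arrays of log2 values centred on M0. Nearest to Dusp2 were Ppfia3 (0.16), Vnn3 (0.17), Slc43a3 (0.19), Rbpms (0.20) and Rab20 (0.20). The search fixes their likeness in change from M0 and does not match level. Ppfia3 and Vnn3 were above 64 units in M1 alone, with M2 means of 31.9 and 38.5 units. Nearest to Dusp4 were Cd74 (0.27), Car2 (0.30), Klf4 (0.35), Cish (0.39) and Gpc1 (0.42). Cd74, the invariant chain of MHC class II, was 0.73 above M0 in M1 and 3.13 in M2, and Cish, a feedback inhibitor of cytokine receptors, was 0.82 and 3.77 above M0. The search itself fixes the shared order of the conditions, and Car2 was above 64 units in M1 and M2 alone.

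**Figure D4:**
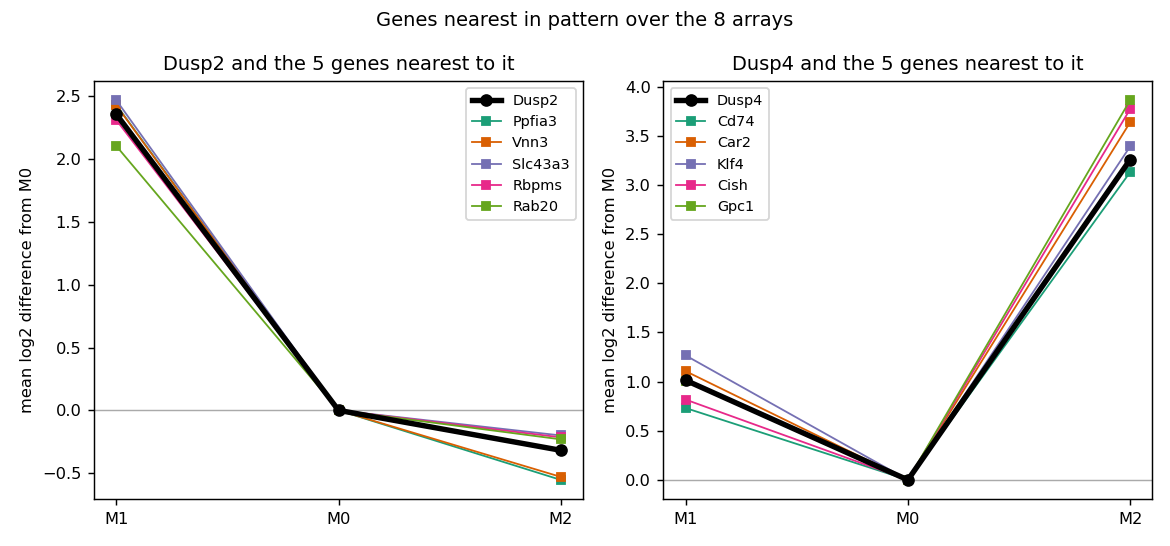
Mean log2 difference from M0 in M1 and M2 of Dusp2 and Dusp4 (black) and of the 5 genes nearest to each over the 8 arrays (colours). The Dusp2 group peaks in M1, at 2.36 for Dusp2, and the Dusp4 group in M2, at 3.26 for Dusp4.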

How the data were processed

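Total RNA of BMDM was hybridized to Affymetrix Mouse 430 2.0 arrays, and the authors normalized the raw data with RMA in GenePattern (versions not given in the sources used here). The deposited values are RMA intensities on a linear scale, 1 per probe set and array, which were turned to log2 values here. Of 45101 probe sets, 64 control sets were left out. Probe sets were named from the platform annotation (34945 with 1 symbol, 932 with several, 9160 unlisted). All 8 arrays entered 1 fit with limma 3.58.1 in R 4.3.3 (lmFit and eBayes, 5 residual degrees of freedom), with Benjamini-Hochberg adjustment over 45037 probe sets. The code was tested on simulated data with 200 changed probe sets. The brightest probe set stood for a gene. Named were the 8 Dusp genes, up to 3 genes of each list with the largest change among those that passed, and the 5 genes nearest in pattern to 2 of them; Dcn, Camp, Cd79b and the genes of the closing section were picked from their values. The members and lists were chosen with earlier results of these data known. Alternatives changed the arrays fitted, variance model, scaling, treatment of dim probe sets, threshold and test. Precision is limited by the number of arrays. Figures were drawn with matplotlib 3.10.9.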

Additional observations from a re-analysis of the deposited data

How the results depend on the processing

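Of 120 recomputed counts of Dusp probe sets, 105 stayed within 1.5 times the reported count. With at least 2-fold required, 2 probe sets were lower in M1 than in M0 (6 without) and 2 lower in M1 than in M2 (8 without). The methods' t-test with adjustment gave, on linear values, 2 higher in M1 against M0, 0 higher in M2 against M0, 0 higher in M1 against M2 and 2 lower in M1 against M2, and on log2 values also 2 lower in M1 against M2. A lower limit of 64 units gave 5 lower in M1 against M2. The count lower in M2 against M0 was 1 in place of 0 with a further quantile normalization, the lower limit, the filter above 64 units, or the methods' t-test on linear values without adjustment. The causes were not tested. Leaving out 1 array gave 4 to 4 higher and 6 to 6 lower in M1 against M0, 1 to 2 higher and 0 to 1 lower in M2 against M0, and 3 to 3 higher and 5 to 8 lower in M1 against M2. No other count of the 13 moved past 1.5 times.

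No value that passed the test changed sign under any alternative, and those that did were near 0. With median centring the log2 difference was 0.0102 for Dusp6 in M1 and 0.0257 for Dusp16 (1418401_a_at) in M2, and by the other Dusp16 probe set (1440615_at) it was 0.0786 in M2. Leaving out 1 array at a time gave -0.341 to 0.0720 for Dusp5 in M1, -0.271 to 0.157 for Dusp6 in M1, -0.181 to 0.0154 for Dusp7 (1460393_a_at) in M2, -0.117 to 0.0711 for Dusp16 (1418401_a_at) in M2 and -0.0739 to 0.231 for its dim probe set in M2.

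The replicate numbers are shared between conditions. Arrays with the same number did not deviate together (r from -0.172 to 0.0547 over 7 pairs, against -0.150 to 0.190 over 14 pairs with different numbers), so the values do not show a pairing, and whether arrays with the same number share a mouse is not given in the sources used here. With the replicate number as a block, 8503, 4798 and 7481 probe sets passed in M1 against M0, M2 against M0 and M1 against M2, compared with 9175, 5483 and 8549 without it, and no count of Dusp probe sets moved (4 and 6, 1 and 0, 3 and 8). Under the block the difference of Dusp16 in M2 was 0.0604.

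Over all probe sets, the 3 comparisons gave 2053, 1283 and 2518 calls with 2-fold required, 2952 for M2 against M0 and 5626 for M1 against M2 at an adjusted p under 0.01, and, by the methods' t-test after adjustment, 5048, 270 and 1526 from log2 values or 4602, 232 and 1135 from linear intensities. M2 has 2 arrays, and with no detection calls a change of a probe set near or below the array median has an uncertain size.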

Other observations

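Beside Dusp23, the genes of the MAP kinase lists that passed in both comparisons with M0 in opposite directions are named here as a description. The share of all named genes that did so was not computed. Rps6ka3, Jun and Spred1, the last an inhibitor of ERK activation, were lower in M1 and higher in M2. Map3k5, Elk3 and Fos, the last an immediate early transcription factor, were higher in M1 and lower in M2. Spred1 was 815 ± 70.2 units in M0 (SD, n = 3), 557 ± 31.2 in M1 (SD, n = 3) and 1117 ± 105 in M2 (SD, n = 2). Fos was 2029 ± 446 in M0 (SD, n = 3), 3660 ± 1040 in M1 (SD, n = 3) and 924 ± 6.65 in M2 (SD, n = 2). The genes were chosen for their opposite directions, so M1 against M2 is no further test. The rise of Spred1 in M2 was lost when M2 replicate 2 or any 1 of M0 replicates 1 and 3 was left out (adjusted p from 0.0554 to 0.175 from limma), and that of Map3k5 as given above.

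Of the 10 Dusp probe sets that passed in M1, M1 replicate 2 was the M1 array nearest to the M0 mean for 7, M1 replicate 1 for 3 and M1 replicate 3 for 0. The 3 were all probe sets of Dusp7, and the 7 include every probe set of Dusp3, so genes with several probe sets count more than once. Over all 9175 probe sets that passed, the shares were 46.0% for M1 replicate 2, 28.5% for M1 replicate 1 and 25.5% for M1 replicate 3.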
